A study of Mus musculus with 10 samples.

Results

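The 10 genes described here carry chloride, bicarbonate and sodium across the intestinal epithelium, or supply the bicarbonate: Cftr, Slc12a2 and Kcnq1 (secretion), Slc26a3, Slc26a6, Slc9a2 and Slc9a3 (absorption and exchange), and Slc4a4, Car2 and Car4 (bicarbonate supply). They were chosen by symbol, and all 10 were present among the 24016 gene symbols (33022 transcripts) of the transcription table. Transcription was measured in mouse duodenal organoids by GRO-seq, a run-on assay that sequences nascent RNA from nuclei. ENRI, the medium used to make enterocytes, held EGF, Noggin, R-spondin and IWP-2, an inhibitor of Wnt secretion, without Wnt3A or CHIR-99021. WENRC, the medium for stem cells, held EGF, Noggin, R-spondin, Wnt3A and the Wnt pathway agonist CHIR-99021. There were 2 GRO-seq libraries per medium, called batch 1 and batch 2 after the authors' file header, and 1 ChIP-seq library of H3K27me3, the histone mark laid down by Polycomb repressive complex 2. The titles name mouse 1 and mouse 2 in both media. Below, p-values of fits without a batch term weigh the change between media against the spread between 2 cultures per medium, leaving that pairing out. Those of fits with batch as a term or block weigh that change against how far it differs from batch to batch. In both kinds of fit, the spread is estimated in part over many genes. No strain, age or genotype is given in the sources used here.

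In the intestine, salt and water move in both directions. Crypt cells take up chloride across their basolateral membrane through the cotransporter encoded by Slc12a2 and release it into the lumen through the anion channel encoded by Cftr, while basolateral potassium channels such as the one encoded by Kcnq1 recycle the potassium that enters with it. Villus enterocytes absorb sodium chloride by pairing apical sodium-proton exchangers (Slc9a2, Slc9a3) with apical chloride-bicarbonate exchangers (Slc26a3, Slc26a6). The duodenum also releases bicarbonate against gastric acid, using bicarbonate imported by the Slc4a4 cotransporter or made by carbonic anhydrases such as Car2 and Car4.

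The proximal promoters of these genes are unlike in base composition. RefSeq windows in build GRCm38.p6, from 250 bases before to 50 after the start, were found for 6 of the 10 genes. Of these, 4 are printed to show the contrast: an exchanger gene with a single CpG, the anion channel gene and a sodium-proton exchanger gene rich in CpG, and the 1 gene without reads. All are on the plus strand, 5′ to 3′, at chr12:31437969-31438268 (Slc26a3), chr6:18170437-18170736 (Cftr), chr13:74121163-74121462 (Slc9a3) and chr11:84957504-84957803 (Car4). Capitals mark matches to the letters of the TATA box (TATAAA) and the GC box (GGGCGG, on either strand), wherever in the window they lie.
Slc26a3: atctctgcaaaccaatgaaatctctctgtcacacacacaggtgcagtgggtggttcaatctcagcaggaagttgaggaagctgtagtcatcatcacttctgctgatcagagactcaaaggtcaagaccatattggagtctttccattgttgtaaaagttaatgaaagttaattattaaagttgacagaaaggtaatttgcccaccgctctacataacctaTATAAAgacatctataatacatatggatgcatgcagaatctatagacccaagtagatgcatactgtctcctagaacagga
Cftr: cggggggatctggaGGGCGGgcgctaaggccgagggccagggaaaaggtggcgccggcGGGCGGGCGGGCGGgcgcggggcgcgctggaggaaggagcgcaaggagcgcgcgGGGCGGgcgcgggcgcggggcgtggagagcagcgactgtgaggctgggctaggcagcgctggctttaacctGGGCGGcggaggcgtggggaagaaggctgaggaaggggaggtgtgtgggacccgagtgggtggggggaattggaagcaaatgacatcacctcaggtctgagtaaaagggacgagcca
Slc9a3: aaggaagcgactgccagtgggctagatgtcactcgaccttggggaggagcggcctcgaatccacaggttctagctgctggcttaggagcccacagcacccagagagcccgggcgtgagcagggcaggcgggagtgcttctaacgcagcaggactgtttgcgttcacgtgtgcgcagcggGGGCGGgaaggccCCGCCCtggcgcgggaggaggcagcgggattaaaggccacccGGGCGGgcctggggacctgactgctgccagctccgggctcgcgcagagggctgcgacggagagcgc
Car4: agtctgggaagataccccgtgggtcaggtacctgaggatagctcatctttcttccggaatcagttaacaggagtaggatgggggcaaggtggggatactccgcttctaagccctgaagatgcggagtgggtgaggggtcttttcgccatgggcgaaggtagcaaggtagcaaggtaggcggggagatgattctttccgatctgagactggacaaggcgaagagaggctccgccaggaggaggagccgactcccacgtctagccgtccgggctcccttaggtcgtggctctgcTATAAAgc

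The Slc26a3 window was 39.3% G or C with 1 CpG, and its TATA box began 30 bases before the start. The Cftr window was 71.3% G or C with 31 CpG and 6 GC boxes, of which 3 overlap one another. The Slc9a3 window was 68.7% G or C with 25 CpG and 3 GC boxes. The Car4 window held 57.3% G or C, 15 CpG and a match to the letters TATAAA that began 42 bases after the start. Over all 32851 windows in the table the median was 52.7% G or C and 7 CpG, so the windows of Slc26a3 and Cftr lie on either side of it. Slc26a6, not printed, held 56.0% G or C, 13 CpG and 1 GC box. Slc4a4 had 2 windows, at 80.0% G or C with 50 CpG and at 48.3% with 3 CpG. A GC box was present in 35.7% of all windows and a TATA box in 13.6%. On both strands, the windows of the 6 genes held none of the letters searched for TCF (CTTTGAT or CTTTGAA or CTTTGTT, in 13.9% of all windows), HNF4 (AAAGTCC, 4.21%), CDX (TTTATGG or TTTATTG, 7.20%) or GATA factors (AGATAA, 11.2%). That is a statement on these letters in these windows alone.

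Reads counted once per gene came to 18368108 and 10245600 in the ENRI libraries of batches 1 and 2, and 16302206 and 5868899 in the WENRC libraries. Summed over 10 enterocyte markers, the level per length was 575 and 815 RPKM in ENRI against 46.7 and 20.5 RPKM in WENRC, where RPKM is reads per kb of gene scaled to an equal total in each library. Both ENRI libraries were above both WENRC libraries for 9 of those 10 markers. Summed over 8 stem cell markers the level was 7.29 and 4.60 RPKM in ENRI against 27.8 and 35.1 RPKM in WENRC, with 8 of 8 lower in ENRI. The ENRI libraries were less alike, with a correlation across 11602 genes of 0.874 in ENRI and 0.949 in WENRC. Across those genes the median log2 change, ENRI minus WENRC, was -0.21, and TMM scaling put it at -0.01, so each change below stands beside that shift.

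All 3 secretion genes were lower in ENRI and all 4 absorption and exchange genes were higher, with no overlap between the libraries of the media for any of the 7. Of all 11602 genes tested, 49.7% had both ENRI libraries below both WENRC libraries and 23.0% had both above. None of the 10 genes passed limma at an adjusted p of 0.05, a threshold that 0.0603% (7) of all genes tested passed as higher and 0.0862% (10) as lower in ENRI. After quantile normalization limma called 504 genes higher and 421 lower (4.34% and 3.63%), among them Slc26a6 as higher. At an unadjusted p under 0.05 in limma, Slc26a3 and Slc26a6 were higher and Cftr, Slc12a2 and Kcnq1 were lower, as were 12.0% and 26.9% of all genes. On recovered reads, edgeR with batch as a block called Slc26a3, Slc26a6 and Slc9a3 higher and none lower, against 5.26% and 2.67% of all genes. Without the block edgeR called Slc26a3 and Slc26a6 higher, against 5.60% of all genes, and none of the 10 lower, against 2.84%. DESeq2 called the same 3 higher and Slc12a2 lower, against 14.7% and 8.88% of all genes. The authors' deposited table, from edgeR with batch as a term, called those 3 higher, and Slc12a2 and Kcnq1 lower, at an FDR of 0.05, against 5.65% and 3.06% of all genes. Slc26a6 entered the limma, edgeR and DESeq2 fits only through ENRI, where it was high, so its calls there are a description. Without the ENRI library of batch 1, limma called Slc26a3 and Slc9a3 higher and Cftr, Slc12a2 and Kcnq1 lower, against 14.4% and 37.7% of all genes tested there, with the lone ENRI library assumed to vary like the WENRC pair; Slc26a6 was not tested in that fit. Their log2 changes were then 2.71 (Slc26a3), 1.91 (Slc9a3), -0.89 (Cftr), -2.45 (Slc12a2) and -1.80 (Kcnq1), at adjusted p between 0.00889 and 0.0118 in limma. Without the ENRI library of batch 2 none of the 10 was called, and the log2 changes were 1.55 (Slc26a3), 0.26 (Slc9a3), -0.34 (Cftr), -0.93 (Slc12a2) and -0.73 (Kcnq1), at adjusted p between 0.0568 and 0.391 in limma. Slc26a6 was not tested in that fit either. In all of these counts, fewer cells of a type and less RNA per cell cannot be told apart.

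**Figure D1:**
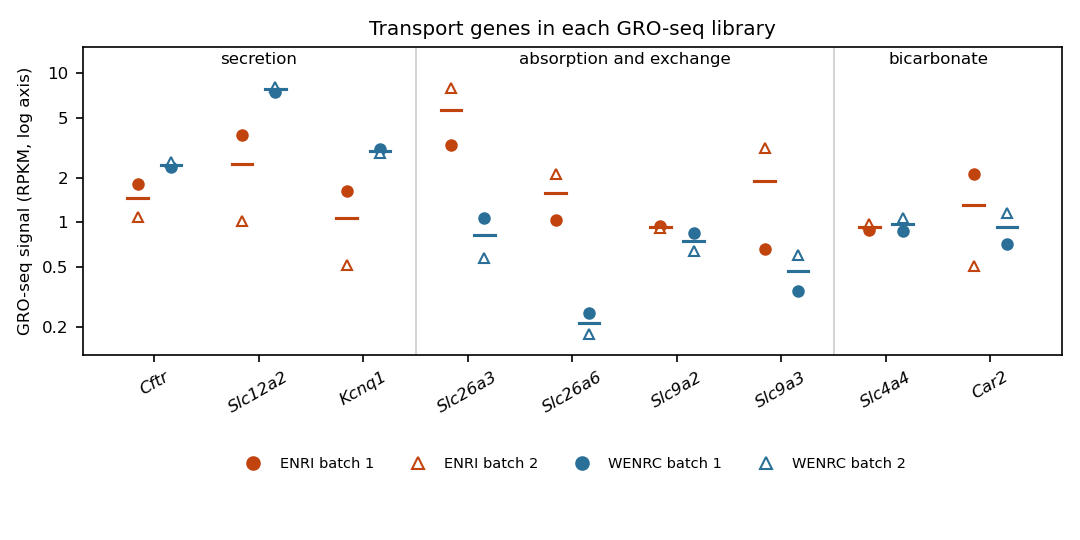
GRO-seq signal in RPKM (log axis) of 9 of the transport genes in each library, with ENRI left of WENRC for each gene, circles for batch 1, triangles for batch 2 and a bar for the mean of 2 libraries. Car4, with 0 reads, is not drawn. The ENRI points of Cftr, Slc12a2 and Kcnq1 lie below the WENRC points, those of the 4 absorption and exchange genes lie above them, and those of Slc4a4 and Car2 overlap.

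Among the secretion genes, Slc12a2 (NM_009194, mm9 chr18:58038332-58106475), which encodes the basolateral sodium-potassium-chloride cotransporter NKCC1, had the highest level of the 10 genes in WENRC. Its level was 3.88 and 1.02 RPKM in ENRI batches 1 and 2, against 7.52 and 8.11 RPKM in WENRC. The WENRC libraries were close and the ENRI libraries were far apart, with means of 2.45 ± 2.02 RPKM in ENRI and 7.82 ± 0.415 RPKM in WENRC (SD, n = 2 each). The log2 change was -1.69 ± 0.54 (SE), with an adjusted p of 0.101 in limma. In DESeq2 on recovered reads the adjusted p was 0.0413, and in the authors' deposited table the log2 change was -1.73 at an FDR of 0.0214. Within batch 1 the ratio of ENRI to WENRC was 0.515 (95% interval of the read counts 0.501 to 0.530), and within batch 2 it was 0.126 (0.118 to 0.134). Such intervals cover counting error only, and PCR copies are not independent molecules.

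Kcnq1 (NM_008434, mm9 chr7:150293159-150612947) encodes the pore of a basolateral potassium channel. It had 1.62 and 0.516 RPKM in ENRI, against 3.13 and 2.92 RPKM in WENRC. Again the ENRI library of batch 2 was the lowest. The log2 change was -1.26 ± 0.38 (SE, adjusted p 0.0928 in limma). In the authors' deposited table it was -1.48 at an FDR of 0.0497. The ratio of ENRI to WENRC was 0.519 (0.509 to 0.529) in batch 1 and 0.177 (0.169 to 0.184) in batch 2.

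The Kcnq1 row also holds reads of the genes inside it, because the table counts reads of both strands together. Kcnq1ot1, the imprinted antisense RNA that starts within Kcnq1, and 4933417O13Rik lie inside it on the other strand. They held 28.8% and 31.8% of the Kcnq1 reads in ENRI and 26.2% and 25.6% in WENRC. The remaining 228 kb had 1.62 and 0.493 RPKM in ENRI, against 3.23 and 3.04 RPKM in WENRC. Over that remainder the log2 change was -1.33 ± 0.39 (SE, adjusted p 0.0902 in limma), close to that of the whole gene. Kcnq1ot1 itself had 1.64 and 0.565 RPKM in ENRI and 2.84 and 2.53 RPKM in WENRC, and its reads cannot be told apart from those of Kcnq1 over the same stretch.

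Cftr (NM_021050, mm9 chr6:18120687-18272769) differed least among the secretion genes. Its level was 1.82 and 1.09 RPKM in ENRI, against 2.34 and 2.55 RPKM in WENRC, with means of 1.45 ± 0.518 RPKM in ENRI and 2.45 ± 0.149 RPKM in WENRC (SD, n = 2 each). The groups did not overlap, but the log2 change of -0.62 ± 0.23 (SE) had an adjusted p of 0.126 in limma, and the authors' deposited table gave -0.55 at an FDR of 0.519. Within batches the ratio of ENRI to WENRC was 0.778 (0.755 to 0.802) in batch 1 and 0.426 (0.405 to 0.448) in batch 2. The CpG-rich promoter printed above belongs to a gene read in all 4 libraries, at 8063 and 2611 reads in ENRI and 9194 and 3587 reads in WENRC.

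Slc26a3 (NM_021353, mm9 chr12:32123084-32158784), which encodes the apical chloride-bicarbonate exchanger DRA, had the highest mean level of the 10 genes in ENRI. It had 3.32 and 8.01 RPKM in ENRI, against 1.07 and 0.582 RPKM in WENRC. Both ENRI libraries were above both WENRC libraries, and the log2 change was 2.13 ± 0.45 (SE), with an adjusted p of 0.0620 in limma. On recovered reads the adjusted p was 0.0487 in edgeR, 0.0419 in edgeR with batch as a block and 2.39e-07 in DESeq2. The authors' deposited table gave a log2 change of 2.94 at an FDR of 1.52e-05. The ratio of ENRI to WENRC was 3.11 (2.90 to 3.34) in batch 1 and 13.8 (11.9 to 16.0) in batch 2. Among the absorption genes with a promoter window, it is the one with a TATA box and without a GC box.

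Slc26a6 (NM_134420, mm9 chr9:108756374-108815380) encodes PAT1, an apical exchanger of chloride, bicarbonate and oxalate. Its level was 1.04 and 2.12 RPKM in ENRI, against 0.247 and 0.178 RPKM in WENRC, so it passed the filter on low values only through ENRI. The log2 change was 1.50 ± 0.29 (SE, adjusted p 0.0585 in limma), and without the filter its adjusted p was 0.0956 in limma. On recovered reads, under the same filter, the adjusted p was 0.0424 in edgeR and 3.95e-10 in DESeq2. A filter of 10 reads in 2 libraries, which Slc26a6 met in all 4 (1792 and 1979 reads in ENRI, 377 and 97 in WENRC), gave an adjusted p of 0.0428 in limma. The authors' deposited table gave a log2 change of 3.06 at an FDR of 9.22e-08. The limma value is on the log2(RPKM + 0.5) scale, which understates the change of a gene this low. Within batches the ratio of ENRI to WENRC was 4.22 (3.77 to 4.72) in batch 1 and 11.9 (9.74 to 14.8) in batch 2. The 2 genes beside it on the same strand were also higher in both ENRI libraries than in both WENRC libraries. Celsr3, whose end is 1074 bp before the start of Slc26a6, had 2.14 and 4.81 RPKM in ENRI and 0.324 and 0.341 RPKM in WENRC. Tmem89, 1570 bp past its end, had 6.91 and 7.98 RPKM in ENRI and 1.43 and 0.687 RPKM in WENRC. Whether reads run on from one of these genes into the next was not tested.

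The sodium-proton exchanger genes differed from each other. Slc9a3 (NM_001081060, mm9 chr13:74258963-74303512), which encodes NHE3, the main exchanger of sodium absorption, had 0.661 and 3.14 RPKM in ENRI against 0.346 and 0.607 RPKM in WENRC. The ENRI library of batch 2 was far above the other 3, and that of batch 1 lay just above the higher WENRC library. The log2 change was 1.09 ± 0.59 (SE, adjusted p 0.232 in limma). The adjusted p on recovered reads was 0.128 in edgeR, 0.0491 in edgeR with the block and 0.00673 in DESeq2, and the authors' deposited table gave 1.90 at an FDR of 0.00171. The ratio of ENRI to WENRC was 1.91 (1.70 to 2.16) in batch 1 and 5.18 (4.54 to 5.93) in batch 2.

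Slc9a2 (NM_001033289, mm9 chr1:40738557-40825730), which encodes the related exchanger NHE2, had 0.949 and 0.914 RPKM in ENRI and 0.846 and 0.648 RPKM in WENRC. The groups did not overlap but lay close together, with means of 0.931 ± 0.0245 RPKM in ENRI and 0.747 ± 0.140 RPKM in WENRC (SD, n = 2 each). The log2 change of 0.20 ± 0.14 (SE) had an adjusted p of 0.314 in limma, and no other fit that was run called it. Its ratio of ENRI to WENRC was 1.12 (1.06 to 1.19) in batch 1 and 1.41 (1.27 to 1.57) in batch 2.

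The bicarbonate genes had no common direction. Slc4a4 (NM_001136260, mm9 chr5:89316285-89668681), which encodes the sodium-bicarbonate cotransporter NBCe1, had 0.890 and 0.974 RPKM in ENRI and 0.873 and 1.08 RPKM in WENRC, and the groups overlapped. Its log2 change was -0.04 ± 0.13 (SE, adjusted p 0.835 in limma) and turned to 0.14 under TMM scaling. The ratio of ENRI to WENRC was 1.02 (0.989 to 1.05) in batch 1 and 0.902 (0.864 to 0.941) in batch 2.

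Car2 (NM_009801, mm9 chr3:14886426-14900770), which encodes a cytosolic carbonic anhydrase, had 2.11 and 0.512 RPKM in ENRI and 0.712 and 1.15 RPKM in WENRC. The highest and the lowest library were both ENRI. The ratio of ENRI to WENRC was 2.96 (2.58 to 3.41) in batch 1 and 0.444 (0.346 to 0.569) in batch 2, so the batches ran in opposite directions, as they did for 20.2% of all genes tested. The pooled log2 change of 0.20 ± 0.50 (SE) had an adjusted p of 0.790 in limma.

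Car4 (NM_007607, mm9 chr11:84771256-84779556), which encodes a carbonic anhydrase anchored to the cell surface, had 0 reads in all 4 libraries. With 3 reads as the limit that a count of 0 allows, its level was at most 0.0124 and 0.0229 RPKM in ENRI and 0.0140 and 0.0391 RPKM in WENRC. A level below these limits was not detectable at this depth.

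For each of the 7 secretion and absorption genes the media differed more in batch 2 than in batch 1, in the same direction. The median log2 change of the 3 secretion genes was -0.77 in batch 1 and -1.75 in batch 2, and that of the 4 absorption genes was 0.75 in batch 1 and 1.84 in batch 2. The stem cell marker sum was lower, and the enterocyte marker sum higher, in the ENRI library of batch 2 than in that of batch 1. Their part in the difference between batches was not tested. Markers of the duodenal duct and Brunner gland summed to 21.4 and 8.46 RPKM in ENRI and 15.1 and 21.9 RPKM in WENRC, with 1 of 4 higher and 1 of 4 lower in both ENRI libraries. Goblet cell markers summed to 46.2 and 30.2 RPKM in ENRI and 9.71 and 7.09 RPKM in WENRC (5 of 7 higher, 2 of 7 lower). Immune cell markers summed to 5.25 and 5.51 RPKM in ENRI and 13.1 and 16.5 RPKM in WENRC (0 of 4 higher, 2 of 4 lower). Proliferation markers summed to 6.90 and 5.00 RPKM in ENRI and 18.3 and 16.9 RPKM in WENRC (4 of 4 lower). Tuft cell markers summed to 1.05 and 0.619 RPKM in ENRI and 1.45 and 1.63 RPKM in WENRC (0 of 4 higher, 3 of 4 lower). No marker of these lists was at 0 in all libraries, and the part of these cells in the results was not tested.

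**Figure D2:**
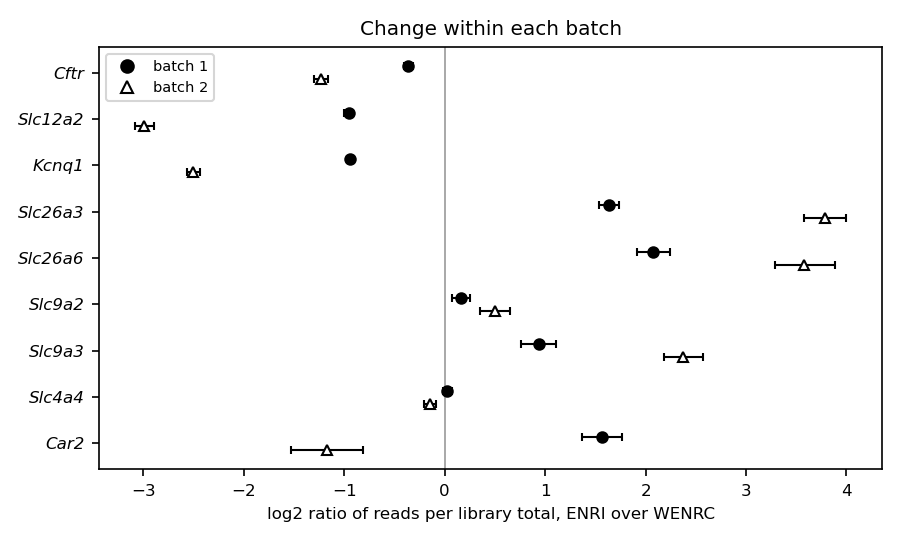
Log2 ratio of ENRI to WENRC reads per library total for each transport gene with reads, within batch 1 (filled circles) and batch 2 (open triangles). Bars are 95% intervals of the read counts. The triangles of the secretion and absorption genes lie farther from 0 than the circles, and the 2 batches of Car2 lie on opposite sides of 0.

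Ratios between genes in the same library do not depend on its scaling. Slc26a3 stood to Cftr at 1.82 and 7.37 in ENRI, against 0.456 and 0.228 in WENRC, so the exchanger gene had the higher level per length in both ENRI libraries and the channel gene in both WENRC libraries. Slc26a6 stood to Cftr at 0.573 and 1.95 in ENRI, against 0.106 and 0.0697 in WENRC. Slc9a3 stood to Slc12a2 at 0.171 and 3.08 in ENRI, against 0.0460 and 0.0748 in WENRC. None of these 3 ratios overlapped between the media, and the ENRI library of batch 2 had the highest value each time. Both follow from the levels of the single genes given above, so they are no further support. Ratios between genes of the same role varied as well. Slc26a3 stood to Slc26a6 at 3.18 and 3.77 in ENRI and 4.31 and 3.27 in WENRC, and Kcnq1 to Slc12a2 at 0.419 and 0.506 in ENRI and 0.416 and 0.360 in WENRC. Slc12a2 stood to Cftr at 2.13 and 0.939 in ENRI against 3.22 and 3.18 in WENRC, with no overlap between the media. Slc9a3 stood to Slc9a2 at 0.697 and 3.44 in ENRI and 0.409 and 0.937 in WENRC, which overlapped.

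The summed level of the 4 absorption genes was 5.97 and 14.2 RPKM in ENRI and 2.51 and 2.01 RPKM in WENRC, and that of the 3 secretion genes was 7.32 and 2.62 RPKM in ENRI and 13.0 and 13.6 RPKM in WENRC. The absorption sum was thus 0.816 and 5.41 times the secretion sum in ENRI, against 0.193 and 0.148 times in WENRC. In the ENRI library of batch 1 the secretion sum was still the larger. With 2 libraries per medium, an exact permutation test of such a ratio cannot give a two-sided p below 0.333, so none was made. Ordered by mean RPKM, the genes in ENRI ran Slc26a3, Slc12a2, Slc9a3, Slc26a6, Cftr, Car2, Kcnq1, Slc4a4 and Slc9a2, and every neighbour in that order overlapped with the next. In WENRC they ran Slc12a2, Kcnq1, Cftr, Slc4a4, Car2, Slc26a3, Slc9a2, Slc9a3 and Slc26a6. There the first 3 stood apart from one another and from the rest, and Slc4a4, Car2, Slc26a3 and Slc9a2 each overlapped with its neighbour.

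**Figure D3:**
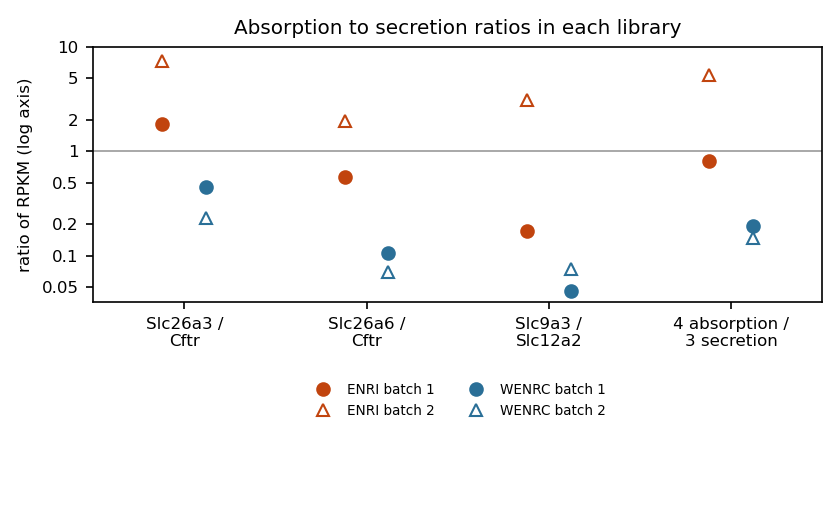
Ratios of RPKM (log axis) between absorption and secretion genes within each GRO-seq library, with ENRI left of WENRC, circles for batch 1 and triangles for batch 2. The line marks equal levels. All ENRI points lie above the WENRC points of the same ratio, as the directions of the single genes require. The sum of the 4 absorption genes exceeds that of the 3 secretion genes in the ENRI library of batch 2, at 5.41 times.

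Other genes of these pathways were described from 4 lists of 18 to 25 genes. In none of the lists did a gene pass limma at an adjusted p of 0.05, in either direction. Some genes counted below, such as Aqp3, Pdzd3 and Car12, passed the filter on low values only through the medium where they were high. Their calls in limma, edgeR and DESeq2 are a description. The shares of all genes called, higher and lower, to set beside the counts below, were 12.0% and 26.9% at an unadjusted p under 0.05 in limma, 14.7% and 8.88% in DESeq2, 5.26% and 2.67% in edgeR with the block, and 5.65% and 3.06% in the authors' deposited table. Of 18 partners of secretion (such as channels and kinases of the secretory cell), 13 were tested, with 4 log2 changes above 0, 9 below and a median of -0.22, near the -0.21 of all genes. At an unadjusted p under 0.05 in limma 2 were higher and 3 lower. DESeq2 called 3 higher and 1 lower, and edgeR with the block 1 and 1. The authors' deposited table, which covers untested genes too, called 1 of the 18 higher and 1 lower. Kcne3, the subunit that keeps the Kcnq1 channel open in intestinal crypts, had 0.523 and 0.363 RPKM in ENRI against 1.76 and 1.48 RPKM in WENRC (log2 change -1.17 ± 0.15 SE, adjusted p 0.0560 in limma). Kcnq1 and the gene of its partner subunit thus had their higher levels in the same medium. Kcne3 is named here because its log2 change was the lowest among the tested genes of the list. Kcnn4, a calcium-activated potassium channel gene, had 2.82 and 0.949 RPKM in ENRI against 4.16 and 3.62 RPKM in WENRC. At the other end of the list, Aqp3, a water and glycerol channel gene, had 1.59 and 3.92 RPKM in ENRI against 0.0355 and 0 RPKM (5 and 0 reads) in WENRC.

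Of 24 partners of absorption (scaffolds, related exchangers and sodium-coupled carriers), 13 were tested, with 9 log2 changes above 0, 4 below and a median of 0.81. At an unadjusted p under 0.05 in limma 8 were higher and 1 was lower, DESeq2 called 8 higher and 0 lower, edgeR with the block 5 and 0, and the authors' deposited table called 9 of the 24 higher and 1 lower. Slc5a1, the sodium-glucose cotransporter gene, had 11.7 and 25.3 RPKM in ENRI against 3.33 and 2.42 RPKM in WENRC (log2 change 2.40 ± 0.44 SE, adjusted p 0.0565 in limma). Pdzd3, which encodes a PDZ scaffold that binds NHE3, had 0.876 and 3.94 RPKM in ENRI against 0.214 and 0.104 RPKM in WENRC. Its highest level was in the ENRI library of batch 2, as for Slc9a3, Slc5a1, Slc26a3 and Slc26a6. Aqp1, a water channel gene, had the lowest log2 change in limma among the 13 tested, with 0.445 and 1.38 RPKM in ENRI against 2.14 and 2.07 RPKM in WENRC. Next to it in log2 change came Ehd4, of endosome recycling, at 0.428 and 0.310 RPKM in ENRI and 0.514 and 0.621 RPKM in WENRC.

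Of 25 genes of bicarbonate carriers, their regulators and anhydrases, 12 were tested, with 7 log2 changes above 0, 5 below and a median of 0.06. At an unadjusted p under 0.05 in limma 3 were higher and 2 lower. DESeq2 called 4 higher and 1 lower, and edgeR with the block 0 and 1. The authors' deposited table, which covers untested genes too, called 1 of the 25 higher and 2 lower. Slc4a7, a sodium-bicarbonate cotransporter gene, had 4.60 and 4.43 RPKM in ENRI against 2.17 and 1.62 RPKM in WENRC (log2 change 1.08 ± 0.18 SE, adjusted p 0.0560 in limma). Its level per length lay above that of Slc4a4 in all 4 libraries. Ahcyl2, a relative of the protein IRBIT that binds such cotransporters, had 1.96 and 2.96 RPKM in ENRI against 1.53 and 1.15 RPKM in WENRC. Car12, a membrane anhydrase gene, passed the filter only through WENRC, with 0.182 and 0.0918 RPKM in ENRI against 0.576 and 0.659 RPKM in WENRC (log2 change -0.81 ± 0.16 SE, adjusted p 0.0582 in limma). Car15 had 3.06 and 5.49 RPKM in ENRI against 6.50 and 6.06 RPKM in WENRC.

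Of 24 genes that set cyclic nucleotide and calcium signals to the channels, 14 were tested, with 11 log2 changes above 0, 3 below and a median of 0.40. At an unadjusted p under 0.05 in limma 5 were higher and 0 lower. DESeq2 called 7 higher and 0 lower, and edgeR with the block 1 and 0. The authors' deposited table, which covers untested genes too, called 5 of the 24 higher and 0 lower. Guca2b, which encodes uroguanylin, a ligand of guanylate cyclase C that raises chloride and bicarbonate secretion, had 13.4 and 25.4 RPKM in ENRI against 0.744 and 0.416 RPKM in WENRC. Its log2 change of 4.15 ± 0.37 (SE) had an adjusted p of 0.0537 in limma, and the authors' deposited table gave 5.16 at an FDR of 1.84e-15. Vipr1, a receptor gene for vasoactive intestinal peptide, had 3.13 and 6.33 RPKM in ENRI against 1.72 and 1.16 RPKM in WENRC. Both belong to signals known to start secretion. They are named here as the 2 highest log2 changes of the list, so their higher levels in ENRI follow from that choice. Adcy6, an adenylate cyclase gene, had 3.41 and 4.14 RPKM in ENRI against 4.89 and 5.03 RPKM in WENRC. Abcc4, the gene of an exporter of cyclic nucleotides, overlapped, at 0.871 and 0.112 RPKM in ENRI and 0.625 and 0.803 RPKM in WENRC.

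**Figure D4:**
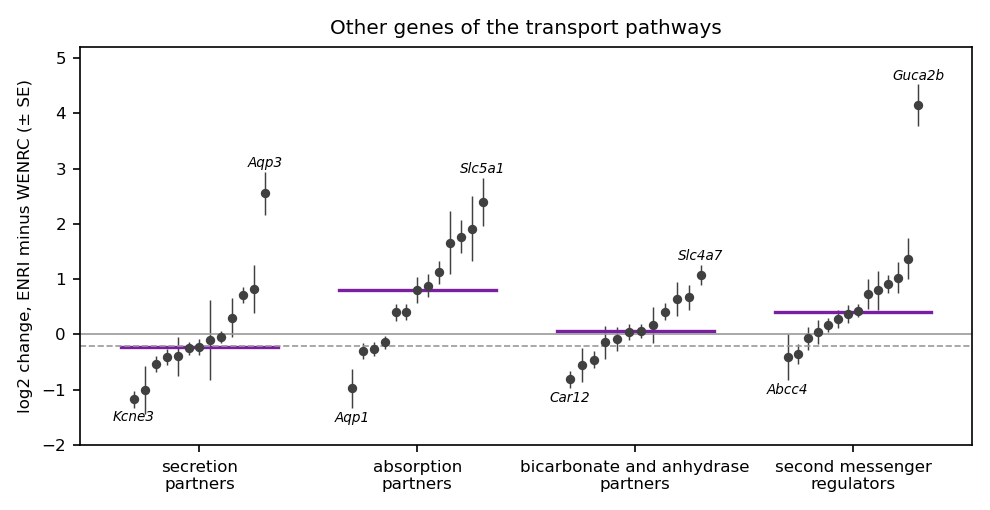
Log2 change, ENRI minus WENRC, with its SE for the tested genes of 4 lists of transport partners and regulators, each gene a point in order of its change. Purple bars are the list medians (-0.22, 0.81, 0.06 and 0.40 from left to right), and the dashed line is the median of all genes tested, -0.21.

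The genes closest in pattern to Cftr over the 4 libraries, by distance between centred log2 values among 6988 genes, were Cpne1 (distance 0.0420), Dnm1l (0.0438) and Ado (0.0443). Those closest to Slc26a3 were B3gnt7 (0.125), Prpsap1 (0.141) and Slc2a2 (0.160). Slc2a2, a sugar transporter gene, had 3.98 and 8.81 RPKM in ENRI against 1.08 and 0.653 RPKM in WENRC. The distances are a description over 4 libraries.

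H3K27me3 was called by the authors in 1 library per medium, so differences between the media have no replicate check and no test. By broad regions within 2 kb of the start, 0 of the 10 genes were marked in ENRI and 1 in WENRC, against 8.76% and 10.5% of all genes. By the narrow lists, whose regions numbered 55544 in ENRI and 33499 in WENRC, 4 of the 10 were marked in ENRI (Slc12a2, Kcnq1, Car2, Car4) and 3 in WENRC (Slc9a3, Car2, Car4), against 19.6% and 17.8% of all genes. Both media marked 14.1% of all genes, ENRI alone 5.51% and WENRC alone 3.73%. The narrow lists covered 55.6 Mb in ENRI and 38.2 Mb in WENRC. Folds below are the authors' ratio of ChIP tags, after scaling, to those of input. Scores are their tag count in the best window of a region, for which the narrow lists required 16 tags in ENRI and 17 in WENRC.

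Slc12a2, lower in both ENRI libraries, had the most narrow regions of the 10 genes. In ENRI, 8 of them lay within 20 kb of its start and covered 14026 bp, against 0 in WENRC, where the nearest narrow region was 93.4 kb away. A region from 3286 to 600 bp before the start had a fold of 5.14 and a score of 18, and one from 528 to 2163 bp after the start had a fold of 4.43 and a score of 43. The widest, from 18880 to 15613 bp before the start, had a fold of 5.98. No broad region reached the gene: the nearest was 40.1 kb from the start in ENRI and 102 kb in WENRC. As many narrow regions in ENRI with 0 in WENRC were found at 13 of 24016 genes (0.0541%), a count made after these regions were seen.

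The other promoter regions of transport genes were fewer. Kcnq1 had 1 region of 500 bp in ENRI, from 1033 to 533 bp before the start, with a score of 17 and a fold of 5.76 over 3 input tags. In WENRC its nearest, 5346 bp before the start, also had a score of 17. Both media had a broad region past the end of Kcnq1, beginning 7102 bp beyond it in ENRI and 5696 bp beyond it in WENRC. Slc9a3, higher in ENRI, had 1 narrow region in WENRC that spanned its start, from 17 bp before to 483 bp after it. Its score of 17 is the threshold of that list, and its fold of 19.2 stands on 1 input tag. Slc9a2 had a region in WENRC that ended 2424 bp before the start, outside the promoter window. Cftr, Slc26a3 and Slc4a4 had no narrow region within 20 kb in either medium. Slc26a6 had one about as far upstream in both, ending 19775 bp before its start in ENRI and 19301 bp before it in WENRC.

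Car2 and Car4 were marked in both media in the narrow lists. Car2 had regions from 1399 to 899 bp before the start (fold 6.37) and from 304 to 939 bp after it (fold 16.4 over 1 input tag) in ENRI, and one from 251 to 1122 bp after the start (fold 4.14) in WENRC. Car4, the gene without reads, had a region from 1910 bp before to 1406 bp after its start in ENRI, with a fold of 8.33 and a score of 18. In WENRC it had regions from 1844 to 1031 bp before the start (fold 4.75) and from 508 bp before to 2649 bp after it (fold 5.69, score 44). The broad promoter region of Car4 in WENRC, the 1 among the 10 genes, spanned 4641 bp at a fold of 5.35 and a score of 34, equal to the tag threshold of that list. A broad region at the start in WENRC alone was found for 4.38% of all genes, and a narrow region of Car4 in ENRI lay over the same start.

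**Figure D5:**
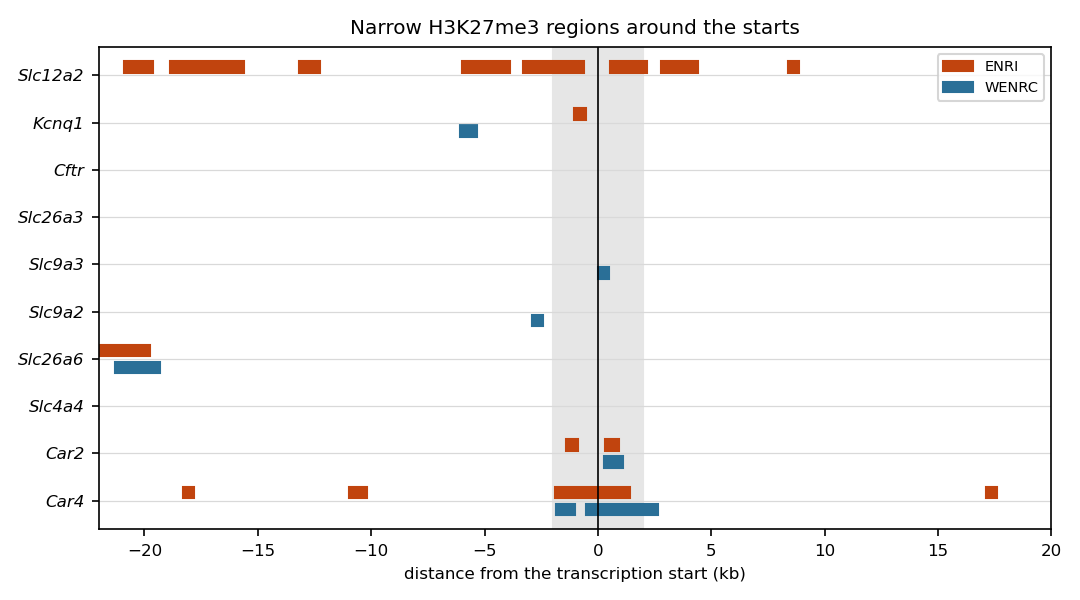
Narrow H3K27me3 regions of the authors, in kb from the transcription start, for the 10 genes, with ENRI above WENRC for each gene and 1 library per medium. The grey band marks 2 kb either side of the start. Slc12a2 has 8 regions in ENRI and 0 in WENRC within 20 kb, Car2 and Car4 have regions at the start in both media, and Cftr, Slc26a3 and Slc4a4 have none in the range drawn.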

How the data were processed

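The 4 GRO-seq libraries and the peak lists of 2 H3K27me3 libraries were used, of 10 samples in the series; the input DNA and H3 samples were not analysed here. Groups came from the titles. Per the submitters' processing notes, FastQC, Bowtie, Bowtie2, HOMER 4.3 and edgeR were used. The authors, per the file headers, ran HOMER over gene bodies of RefSeq transcripts in mm9 and fitted edgeR with batch as a term, which gave the deposited log2 fold changes, p-values and FDR. The deposited signal columns hold equal totals. All low values tested (100%, tolerance 0.1, up to 20 reads) were whole multiples of 1 step per library, so read counts were recovered from the deposited signal. The table counts both strands together: genes inside another gene on the other strand had more reads than the outer gene in 0 of 117 to 124 pairs per library. Columns could be tied to a medium and a batch, not to a mouse. Batches pair the libraries across media per the file headers, and deviations of paired libraries from their group means correlated at 0.0126.

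RPKM was computed from the deposited signal; the RPKM columns were not used here. One transcript stood for each symbol, the longest. The 11602 genes reaching 0.5 RPKM in 2 libraries were tested with limma 3.58.1 (R 4.3.3, mean trend) on log2(RPKM + 0.5), with no block and Benjamini-Hochberg adjustment over all of them (threshold 0.05). Kcnq1 without its inner genes was added after seeing the data. Alternatives were other pseudocounts, filters and scalings, the batch block, edgeR 4.0.16 and DESeq2 1.42.0 on recovered reads, the shortest transcript, each library left out, and other peak lists, widths and scores.

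The authors called peaks with HOMER in each library against input, per the file headers, and the deposited score, ratio over input and coverage are theirs. A region within 2 kb of the start (1 bp overlap) marked a promoter. The base of the deposited coordinates is not stated. The 10 genes, the 4 lists and the markers were chosen with earlier results of these data known. The text names those 10, the 2 highest and 2 lowest tested genes of each list, and the 3 genes most like Cftr and Slc26a3; Celsr3, Tmem89, Kcnq1ot1 and 4933417O13Rik are named as neighbours. A result for 1 gene that this rule selects is not reported here.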

Additional observations from a re-analysis of the deposited data

How the results depend on the processing

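With 2 libraries per medium the counts of called genes moved strongly, while the direction of each secretion and absorption gene held in every alternative that tested it. The libraries of the media did not overlap for these genes. Other pseudocounts, filters, the shortest transcript, the block or a library left out therefore could not turn a direction. Only the alternatives that change the scaling could. Against 7 higher and 10 lower genes in limma, a pseudocount of 0.1 gave 1 and 0, no filter and TMM scaling 0 and 0, a filter of 1 RPKM 19 and 23, one of 10 reads 544 and 947 and quantile normalization 504 and 421, and median centring left 5 lower. With batch as a replicate block, limma called 0 and 0 and edgeR 610 and 310; without the block edgeR called 650 and 329 and DESeq2 1706 and 1030. Leaving out 1 library gave 0 to 1599 higher and 0 to 4205 lower, above 0 only without ENRI batch 1; the lone library is assumed to vary like the other pair. Of the 10 genes, 2 were called higher with the filter of 10 reads, beside 544 of all 16754 genes tested there. After quantile normalization 1 was called higher (4.34% of all genes tested). In edgeR 2 were called higher (5.60%), in edgeR with the block 3 (5.26%) and in DESeq2 3 (14.7%), which called 1 lower (8.88%). Slc26a6, among those called higher, entered the quantile, edgeR and DESeq2 fits only through ENRI. The absorption median of 1.29 was 2.66 in edgeR, 2.42 with the block, 2.70 in DESeq2 and 0.26 to 1.91 with 1 library left out. Both ends of that range come from fits without an ENRI library. Slc26a6 was not tested there, so the median was taken without it and was the value of Slc9a3. Slc4a4 turned to 0.14 (TMM), 0.11 (median centring), 0.16 (quantile), 0.18 (edgeR), 0.19 (edgeR with the replicate block), 0.21 (DESeq2) and, with 1 library left out, ran between -0.142 and 0.0597, above 0 without WENRC batch 2 or ENRI batch 1. Car2 ran between -0.48 and 0.88 with 1 library left out, below 0 without WENRC batch 1 or ENRI batch 1. Promoters marked numbered 4 in ENRI and 3 in WENRC by narrow regions, and 0 in WENRC among broad regions above the median score. The cause of these shifts was not tested. With 1 H3K27me3 library per medium, depth and medium cannot be told apart there.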
